A study of Rattus norvegicus with 24 samples.

Results

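The 26S proteasome is the protease that degrades proteins tagged with ubiquitin, and the genes of its subunits are described here across 24 RNA-seq libraries of rat kidney inner medulla and heart ventricle. The members were found by their gene symbols, and all 36 symbols on the list were present among the 36856 genes of the count tables. They comprise the 14 subunits of the 20S core (Psma1 to Psma7 and Psmb1 to Psmb7) and 20 genes of the 19S regulatory particle, which are 6 Psmc and 14 Psmd genes. Adrm1 and Pomp complete the list. The label "subunits" is loose for 4 of them: Psmd5, Psmd9 and Psmd10 are assembly chaperones of the regulatory particle's base that leave before the particle is complete, and Pomp is the maturation factor of the core.

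The 20S core is a barrel in which Psma proteins form the outer rings and Psmb proteins the inner rings. The proteolytic sites lie inside, on Psmb5 (chymotrypsin-like), Psmb6 (caspase-like) and Psmb7 (trypsin-like). The 19S particle caps the barrel: its base holds the Psmc ATPases, which unfold substrates and open the gate, and its lid holds the deubiquitinase Psmd14. Psmd4 and Adrm1 are ubiquitin receptors. The transcription factor NRF1 (gene Nfe2l1) can raise many of these genes together when proteolysis is impaired, through antioxidant response elements in their promoters. The kidney inner medulla is the innermost zone of the kidney, where the interstitium is salty and proteins are under osmotic load, and in heart muscle the proteasome takes part in the turnover of contractile proteins.

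Sprague-Dawley rats weighing 120 to 200 g ate synthetic diets for 7 days, and 4 rats were sequenced in each of 6 groups. In the aldosterone experiment, rats on 0.4% Na had a minipump releasing 12 µg of aldosterone, the Na-retaining adrenal steroid, per day, and their controls ate the same diet without the hormone. In the low-salt experiment, rats ate 0.01 to 0.02% Na ("low salt") or 0.4% Na, which the protocol calls control and the titles call high salt, and inner medulla and ventricle were taken. Whether both tissues came from the same animals, and whether control rats carried a pump, is not stated. By the labels, each group had its rats 1 and 2 in batch 1 and its rats 3 and 4 in batch 2.

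The libraries held 24299423 to 38318764 counts, and the lowest count of any member in any library was 368, for Psmd10 in heart. Levels below are CPM, the counts scaled to a common library size by TMM, with 1 value per rat. Levels are compared between groups and never between genes, since no transcript lengths were used. The labels describe all rats as female, but the libraries of the low-salt experiment had a male pattern of Xist and Y-linked genes. In the 8 aldosterone-experiment libraries Xist ran from 234.4 to 451 CPM and the summed Y-linked genes to at most 0.314 CPM, whereas in the 16 low-salt-experiment libraries Xist reached at most 0.0918 CPM and the Y-linked genes 148 to 276 CPM. The library of each tissue carried its markers: 7 ventricle muscle genes summed to 70180 to 87806 CPM in heart and at most 5.71 CPM in kidney, and 7 inner medulla genes to 12266 to 23388 CPM in kidney and at most 374 CPM in heart. In bulk tissue, fewer cells of a type and less RNA per cell cannot be told apart.

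The members were found by symbol, but the set was chosen by a reading of these data in which the CPM differences between treated and reference rats in the 3 treatment comparisons were known. Their values in those comparisons are therefore a description, and nothing is read from the counts that passed a threshold there. The comparison of heart with kidney was not used to choose them, though its high-salt libraries are the reference groups of the low-salt comparisons.

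In the inner medulla, the regulatory particle genes lay lower on low salt in sum, and the core genes lay lower by less in the median. The 7 Psmb genes of the core had a median log2 fold change of -0.15, near the -0.16 of the regulatory genes without the chaperones. The difference between core and regulatory genes was not tested. The 20 regulatory genes summed to 2056, 2061, 2037 and 2071 CPM in the 4 low-salt rats and to 2304, 2370.2, 2313 and 2331 CPM in the 4 high-salt rats. The groups did not overlap, at 2056 ± 14.5 against 2329.8 ± 29.2 CPM (mean ± SD, n = 4 each). The 14 core genes summed to 1631, 1567, 1468 and 1508 CPM with low salt and 1709, 1634, 1556 and 1648 CPM with high salt, and these groups overlapped. Within each batch they did not: the low-salt sums of rats 1 and 2, and those of rats 3 and 4, lay below the high-salt sums of the same batch. All 36 members together took 0.368% to 0.390% of the counts on low salt and 0.406% to 0.429% on high salt. In the control kidneys of the aldosterone experiment, which were also from rats on 0.4% Na but belong to another table, they took 0.370% to 0.394%, a range that overlaps that of the low-salt kidneys and not that of the high-salt kidneys. The 2 experiments also differ in Xist and Y-linked genes, and so in apparent sex, as given above. The ratio of the core sum to the regulatory sum was 0.751 ± 0.0334 on low and 0.703 ± 0.0296 on high salt.

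**Figure D1:**
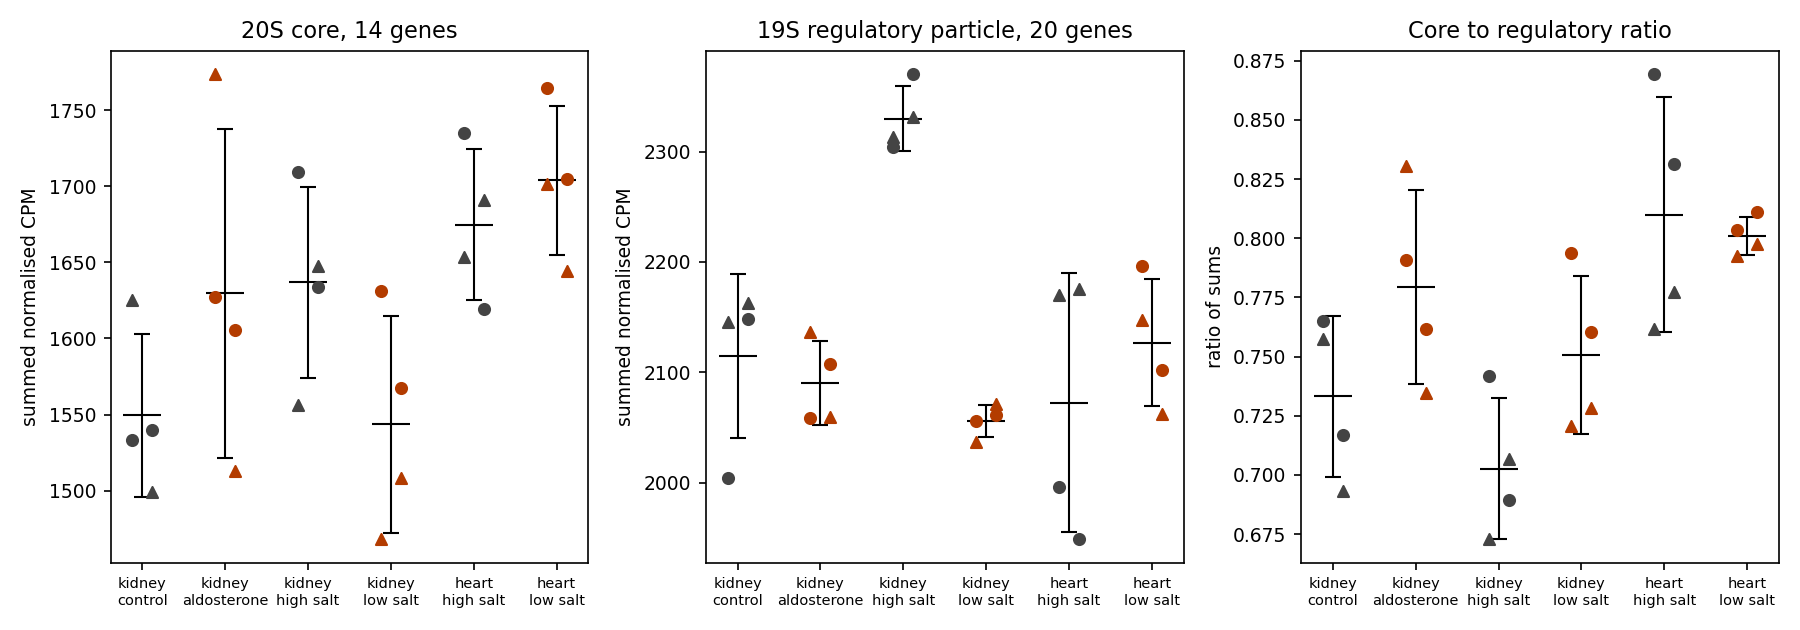
Summed CPM of the 14 core genes and of the 20 regulatory genes, and the ratio of both sums, in each of the 24 libraries. Each point is 1 rat (circles batch 1, triangles batch 2), horizontal lines are group means and error bars the SD, and the axes do not start at 0. In kidney, the regulatory sums on low salt (2037 to 2071) lie below all those on high salt (2304 to 2370), while the core sums overlap.

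By edgeR, 8 of the 36 members fell on low salt in kidney and none rose (adjusted p of 0.0201 to 0.0494), where 1.37% of the 18449 genes tested were called lower and 1.09% higher. The 8 were 7 regulatory genes and Adrm1. No core gene passed by edgeR: 5 of 14 were lower at an unadjusted p under 0.05, as were 1964 of all 18449 genes, and DESeq2 called Psmb3 and Psmb5 among 841 genes lower. The median log2 fold change was -0.17 over the regulatory genes and -0.07 over the core genes, beside 0.00 over all genes tested. In 16 members every low-salt rat lay below every high-salt rat, which held for 6.62% of all genes tested, and in none every low-salt rat lay above (4.83% of all genes). Those 16 were 12 regulatory genes, Adrm1, and Psmb3, Psmb5 and Psmb6 of the core.

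The largest differences were those of 2 of the 3 assembly chaperones. Psmd10 (gankyrin) escorts a base ATPase during assembly. It stood at 46.3, 58.9, 58.4 and 61.5 CPM in low-salt rats 1 to 4 and at 77.6, 84.7, 93.3 and 77.9 CPM in high-salt rats 1 to 4. Each low-salt value lay below each high-salt value, and the log2 fold change was -0.57 ± 0.09 (SE). Psmd5, the chaperone that holds a different base ATPase, stood at 60.7, 71.3, 74.0 and 78.4 CPM with low salt and 88.1, 94.2, 111 and 104 CPM with high salt. Its groups did not overlap either, with a log2 fold change of -0.48 ± 0.07. Psmd9, the last of the 3 chaperones, was at -0.12 ± 0.07 (adjusted p = 0.385 by edgeR) and did not pass.

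In the base, Psmd1 is the large scaffold that carries ubiquitin-binding partners such as Adrm1. Psmd1 stood at 119, 134, 133 and 136 CPM with low salt and 160.3, 166, 169 and 168 CPM with high salt. Low-salt rat 1 was the lowest and the groups were apart, with a log2 fold change of -0.35 ± 0.05. Adrm1 itself was at 97.5, 110.0, 109.8 and 111 CPM with low salt and 127, 136, 133 and 127 CPM with high salt, again with low-salt rat 1 lowest and no overlap, and changed by -0.29 ± 0.06 on the log2 scale. Of the 6 base ATPases only Psmc5 passed, at 87.9, 85.9, 79.9 and 89.0 against 102, 102, 102 and 102 CPM and a log2 fold change of -0.25 ± 0.05, and it is singled out after its values were seen. Psmc1 was just outside, at -0.25 ± 0.05 (adjusted p = 0.0541 by edgeR), and Psmc2 lay at 0.03 ± 0.05. The 6 ATPases therefore ranged from called lower to slightly positive. Psmd4, the other ubiquitin receptor, stood at 99.8, 93.7, 99.4 and 95.9 CPM with low salt and 105, 99.7, 98.1 and 109 CPM with high salt, -0.09 ± 0.06 on the log2 scale, and did not pass (adjusted p = 0.437 by edgeR).

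In the lid, Psmd14 removes the ubiquitin chain from the substrate and Psmd7 is its binding partner. Psmd14 stood at 56.1, 54.5, 48.5 and 50.9 CPM with low salt and 65.0, 67.7, 59.2 and 63.8 CPM with high salt. Psmd7 stood at 75.1, 75.6, 79.2 and 82.5 CPM against 95.6, 92.2, 95.2 and 90.7 CPM. Neither pair of groups overlapped, and the log2 fold changes were -0.29 ± 0.06 and -0.26 ± 0.05. Psmd13, a structural lid subunit, stood at 100.2, 101, 97.6 and 96.6 CPM with low salt and 123, 124, 115 and 112 CPM with high salt, with no overlap and a log2 fold change of -0.26 ± 0.04. Of the other lid subunits, Psmd3 was at 0.02 ± 0.05, Psmd6 at -0.02 ± 0.05 and Psmd12 at -0.01 ± 0.05 on the log2 scale. Psmd8 was at -0.06 ± 0.05. Psmd11 was lower, at -0.18 ± 0.05 with groups apart, and did not pass (adjusted p = 0.076 by edgeR).

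In the core, the catalytic subunits had small differences that did not pass. Psmb5 stood at 104, 101, 100.4 and 102 CPM with low salt and 113, 115, 112 and 116 CPM with high salt, and its groups were apart (-0.16 ± 0.04 log2, adjusted p = 0.0922 by edgeR). Psmb6 stood at 96.4, 89.6, 88.1 and 90.6 CPM against 108, 98.9, 98.2 and 106 CPM, also apart (-0.17 ± 0.06 log2, adjusted p = 0.14 by edgeR). Psmb7 stood at 124, 117, 118 and 114 CPM against 133, 127, 122 and 129 CPM and overlapped (-0.11 ± 0.05 log2, adjusted p = 0.276 by edgeR). The 7 Psmb genes were all negative with a median of -0.15, beside -0.16 over the regulatory genes without the chaperones, and the 7 Psma genes had a median of -0.06 with 2 of them positive. Pomp, which matures the core, stood at 95.0, 94.2, 92.8 and 91.3 CPM with low salt and 108, 98.4, 86.3 and 103 CPM with high salt (-0.08 ± 0.07 log2, adjusted p = 0.543 by edgeR).

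**Figure D2:**
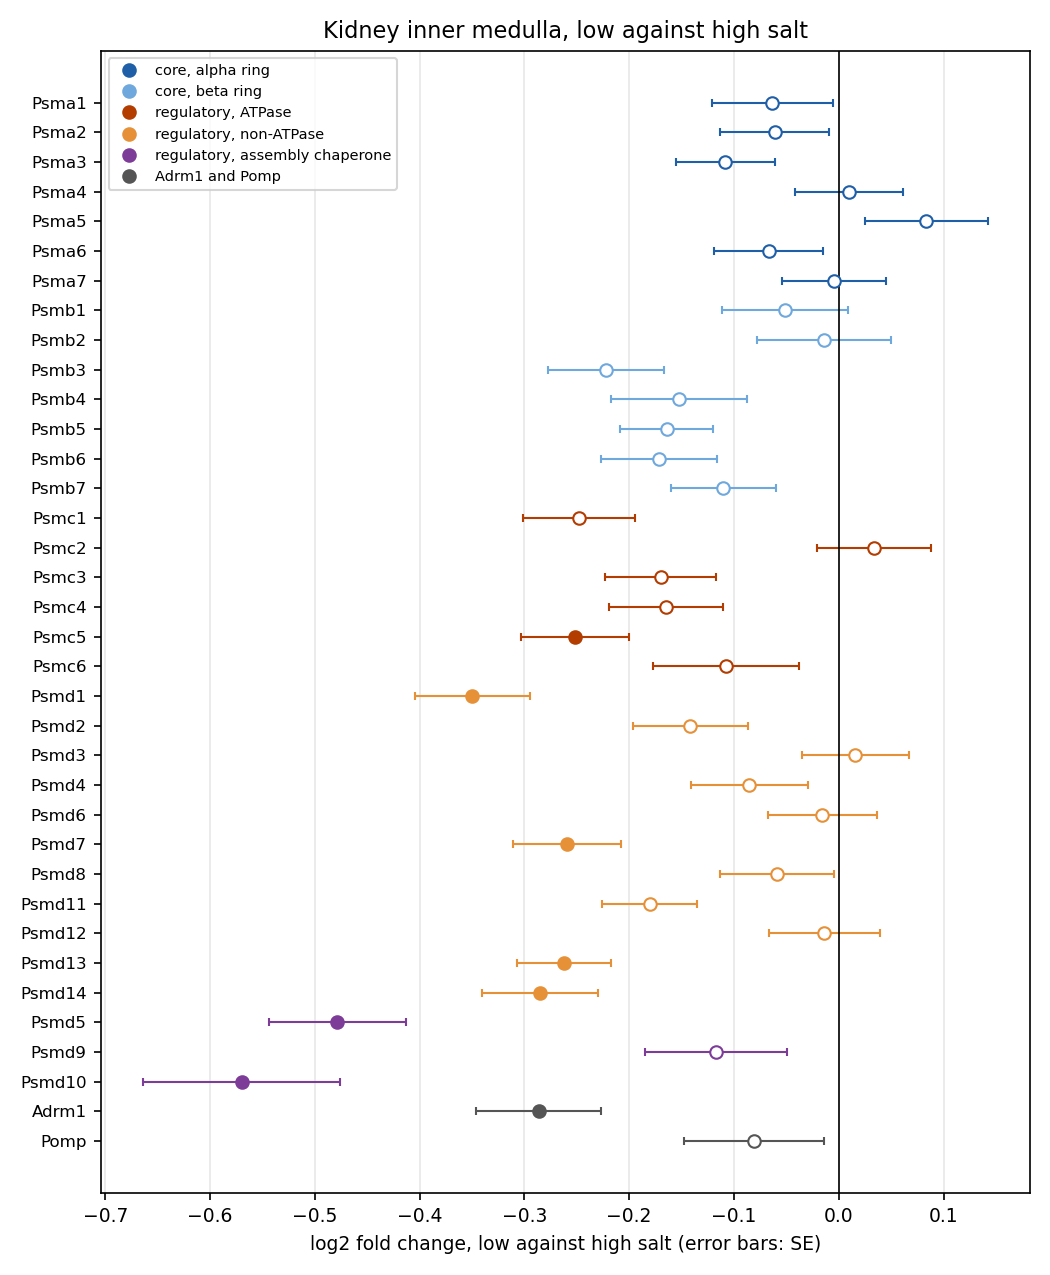
Log2 fold change of each of the 36 members in kidney, low against high salt, with SE as error bars, ordered by role. Filled points are the 8 with an adjusted p under 0.05 by edgeR. Psmd10 (-0.57) and Psmd5 (-0.48) lie farthest to the left, and no core gene is filled.

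**Figure D3:**
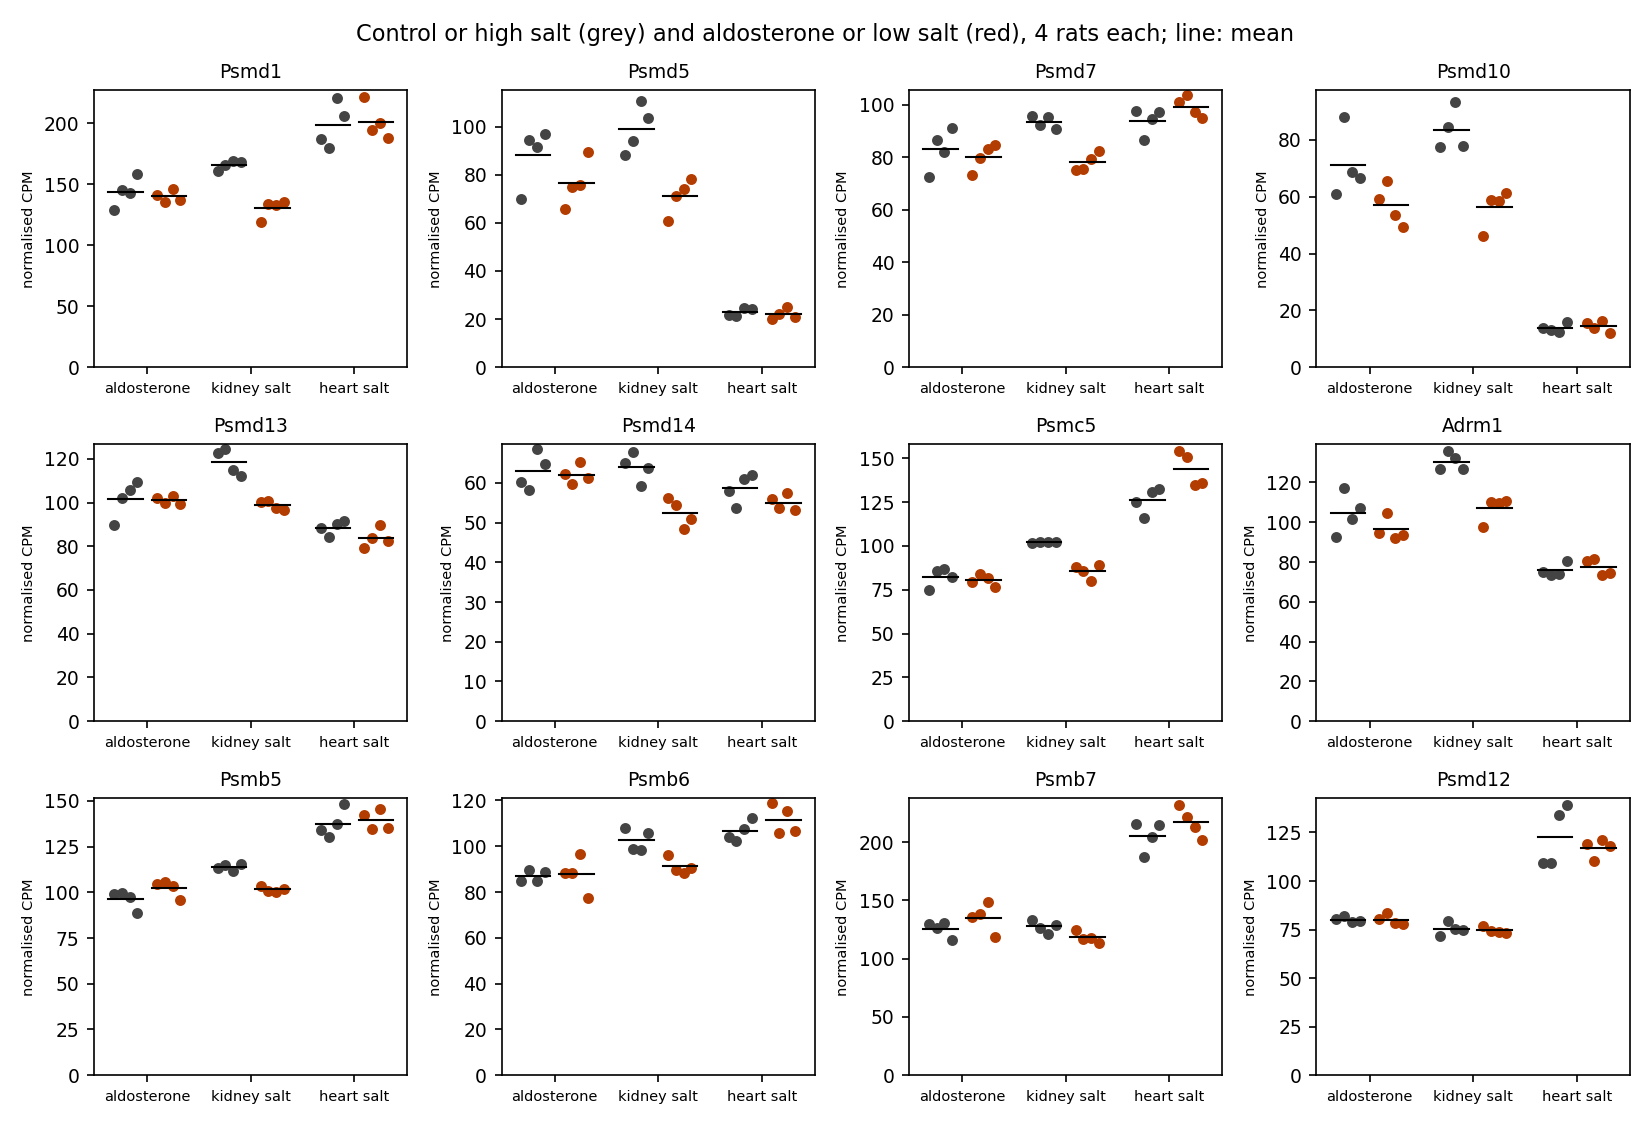
CPM of 12 members in all 24 libraries, 1 point per rat and a line at each mean, with control or high salt in grey and aldosterone or low salt in red. In the middle pair of each panel (kidney, low-salt experiment) the groups do not overlap for the 8 members that fell, Psmb5 and Psmb6, and they overlap for Psmb7 and Psmd12. Levels of different experiments were scaled separately.

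The number of members called rested on single libraries. All 8 calls were lost without any one of low-salt rat 3, low-salt rat 4 or high-salt rats 1, 2 or 3, and 3 remained (Psmd1, Psmd5 and Psmd10) without low-salt rat 1, low-salt rat 2 or high-salt rat 4, while the regulatory median stayed between -0.18 and -0.15. Within batch 1 the regulatory median was -0.17 and 27 of 36 members were negative, and within batch 2 it was -0.19 and 34 were negative, with no call in either batch of 2 against 2 rats. Library totals also differed between the diets, with 30830317 to 32755197 counts for low salt and 34013396 to 38318764 for high salt. So did the summed inner medulla markers, at 12266 to 14730 against 19587 to 23388 CPM, with 1 of the 7 called higher and 2 lower. Gene by gene these markers went both ways. Of the 7, 4 were positive and 3 negative, from -1.74 to 2.66 log2 with a median of 0.07. Red-cell genes ran from 2523 to 5530 against 1152 to 3960 CPM and leukocyte genes from 23.1 to 28.9 against 21.6 to 31.7 CPM. The part of these in the result was not tested.

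Promoters are shown as a description of sequence and are not used to explain the values. RefSeq promoters of the GRCr8 assembly (250 bases before to 50 after the start) matched 32 of the 36 members, and Psma7, Psmd6, Psmd12 and Psmd14 had none in the table. Both strands were searched for TGACNNNGC, the core of the antioxidant response element to which NRF1 and its relative NRF2 bind, and for CCAAT, the box bound by NF-Y. A match to either motif does not require a match to the other. TGACNNNGC occurred in 8 of 32 member promoters, or 25%, against 12.1% of all 33469 promoters. CCAAT occurred in 17 of 32, or 53.1%, against 37.5%. The former was in 4 of 13 core and 3 of 17 regulatory promoters, and the latter in 9 of 13 and 7 of 17. The 200 bases before the start are printed 5′ to 3′ on the gene's strand, with matches to either motif on either strand in capitals, for the catalytic subunit Psmb5 (chr15:32047380-32047579, minus strand), the receptor Adrm1 (chr3:187642843-187643042, plus), the scaffold Psmd1 (chr9:94157771-94157970, plus) and the chaperones Psmd5 (chr3:38548491-38548690, minus) and Psmd10 (chrX:109453606-109453805, minus).
Psmb5: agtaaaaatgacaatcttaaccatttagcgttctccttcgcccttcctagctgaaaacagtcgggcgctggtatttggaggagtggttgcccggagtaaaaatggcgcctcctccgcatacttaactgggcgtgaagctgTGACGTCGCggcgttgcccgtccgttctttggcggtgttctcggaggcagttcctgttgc
Adrm1: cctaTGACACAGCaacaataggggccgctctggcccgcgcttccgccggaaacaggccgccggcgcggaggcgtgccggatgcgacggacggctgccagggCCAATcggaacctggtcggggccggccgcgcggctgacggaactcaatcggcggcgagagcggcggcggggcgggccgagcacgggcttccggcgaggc
Psmd1: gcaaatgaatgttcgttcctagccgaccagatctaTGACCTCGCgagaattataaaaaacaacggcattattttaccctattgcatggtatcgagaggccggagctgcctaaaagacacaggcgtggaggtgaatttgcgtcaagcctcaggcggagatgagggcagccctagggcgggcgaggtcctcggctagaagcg
Psmd5: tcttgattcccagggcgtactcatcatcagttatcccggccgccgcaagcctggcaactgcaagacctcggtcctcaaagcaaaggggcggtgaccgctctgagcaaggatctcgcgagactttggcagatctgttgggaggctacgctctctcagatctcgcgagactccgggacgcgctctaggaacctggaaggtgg
Psmd10: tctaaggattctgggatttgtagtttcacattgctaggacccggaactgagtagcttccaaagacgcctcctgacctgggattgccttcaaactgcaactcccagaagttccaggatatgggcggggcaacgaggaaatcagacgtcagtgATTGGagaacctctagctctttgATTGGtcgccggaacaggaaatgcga
The stretches of Psmb5, Adrm1 and Psmd1 each hold the antioxidant element core. Adrm1 also holds the CCAAT box, Psmd10 holds it read as ATTGG on the printed strand, and neither motif occurs in the stretch of Psmd5. A match describes the letters only. The members that fell thus include genes with and without each motif. Of these, Adrm1 and Psmd1 hold the antioxidant element core in the searched promoter. Psmc5, Psmd5, Psmd7, Psmd10 and Psmd13 do not, and Psmd14 could not be searched.

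Other genes of the ubiquitin and proteasome pathway gave a limited picture in the same kidneys, and other complexes are described at the end. The inducible core subunits, which replace the catalytic ones in the immunoproteasome, did not pass. Psmb8 stood at 25.4, 28.1, 14.1 and 19.4 CPM with low salt and 18.0, 13.8, 11.1 and 18.9 CPM with high salt (0.46 ± 0.21 log2, adjusted p = 0.282 by edgeR). Psmb9 stood at 31.3, 26.5, 23.8 and 24.3 against 26.2, 17.7, 15.9 and 22.8 CPM (0.36 ± 0.15 log2, adjusted p = 0.244 by edgeR). Psmb10 stood at 31.1, 29.6, 18.1 and 21.6 against 29.5, 21.3, 22.9 and 27.9 CPM (-0.05 ± 0.16 log2, adjusted p = 0.899 by edgeR). All 3 overlapped between the diets. Nfe2l1, the NRF1 gene, stood at 372, 388, 375 and 410.2 CPM with low salt and 332, 388, 402 and 409.6 CPM with high salt, and its log2 fold change was 0.02 ± 0.07.

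None of the 5 activator and inhibitor genes (Psme1 to Psme4, Psmf1), of 9 measured assembly and proteasome-bound genes, of 8 genes of NRF1 processing with Nfe2l1, of 6 ubiquitin and activating-enzyme genes or of 5 shuttle genes passed by edgeR in kidney. Psme1, a subunit of the 11S activator, was at 0.30 ± 0.11 on the log2 scale, and Usp14, a deubiquitinase that docks on the base, was at -0.17 ± 0.05 with groups apart. Of 8 NRF2 targets, the oxidative stress genes, 2 fell and none rose, where 1.37% of all genes tested were called lower and 1.09% higher. Srxn1 (sulfiredoxin) stood at 22.2, 35.5, 24.3 and 22.7 CPM with low salt and 125, 111, 63.6 and 107 CPM with high salt, a log2 fold change of -1.95 ± 0.19 (adjusted p = 0.0103 by edgeR). Nqo1 (a quinone reductase) stood at 44.6, 59.1, 92.8 and 98.7 against 287, 116, 169.9 and 362 CPM, -1.71 ± 0.33 on the log2 scale (adjusted p = 0.043 by edgeR). Both had groups that did not overlap. The other 6 did not pass, with Gclc at 0.68 ± 0.49 and Hmox1 at -1.25 ± 0.34.

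Aldosterone given on an unchanged diet left every member short of the threshold. No gene at all was called by edgeR among 17671 tested (0% in each direction), while an unadjusted p under 0.05 was reached by 1096 higher and 654 lower genes and DESeq2 called 290 and 65. No member was called by DESeq2 either, 1 member was lower at an unadjusted p under 0.05, and no member had groups apart (3.15% of all genes did so upward and 1.95% downward). The 14 core genes were all positive, from 0.01 to 0.11 with a median of 0.08, and 6 of the 20 regulatory genes were positive with a median of -0.02, beside 0.00 over all genes. The core sum was 1629.8 ± 108 CPM with aldosterone and 1549.5 ± 53.7 CPM in controls, and the regulatory sum 2090.2 ± 38.3 and 2115 ± 74.3 CPM (mean ± SD, n = 4 each). In both sums the groups overlapped. Within batch 1 the core median was 0.09 and the regulatory median 0.02, and within batch 2 they were 0.08 and -0.04. With each library left out, the core median ran from 0.03 (without aldosterone rat 3) to 0.12 (without aldosterone rat 4).

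The 2 chaperones that fell on low salt were again among the lowest, without passing. Psmd10 stood at 59.2, 65.4, 53.7 and 49.4 CPM in aldosterone rats 1 to 4 and 60.9, 87.9, 68.8 and 66.5 CPM in controls 1 to 4 (-0.32 ± 0.11 log2, adjusted p = 0.402 by edgeR). Psmd5 stood at 65.6, 74.9, 75.7 and 89.4 against 70.0, 94.4, 91.6 and 96.8 CPM (-0.21 ± 0.11 log2, adjusted p = 0.572 by edgeR). Both overlapped between the groups. At the other end were 2 outer ring subunits. Psma7 stood at 150.3, 145, 161 and 147 CPM with aldosterone and 137, 138, 146 and 137 CPM in controls (0.11 ± 0.06 log2, adjusted p = 0.573 by edgeR), where control 3 stood above the other controls. Psma4 stood at 109, 102, 112 and 103 against 102, 92.0, 105 and 96.1 CPM (0.11 ± 0.07 log2, adjusted p = 0.632 by edgeR). Each of these groups overlapped its control.

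The catalytic subunits did not pass with aldosterone. Psmb5 stood at 104, 106, 103 and 95.6 CPM with the hormone and 99.0, 99.7, 97.6 and 88.7 CPM without, 0.09 ± 0.06 on the log2 scale. Psmb6 stood at 88.4, 88.4, 96.6 and 77.6 against 84.9, 89.6, 84.9 and 88.6 CPM, 0.01 ± 0.08 log2. Psmb7 stood at 135, 138, 149 and 119 against 129.9, 127, 131 and 116 CPM, 0.10 ± 0.08 log2. None of the 3 separated the groups. The lid deubiquitinase Psmd14 stood at 62.2, 59.8, 65.1 and 61.1 against 60.1, 58.1, 68.6 and 64.8 CPM (-0.02 ± 0.06 log2). The receptors gave a similar picture, with Psmd4 at 93.1, 90.5, 88.2 and 86.4 against 89.9, 94.6, 86.7 and 90.5 CPM (-0.01 ± 0.05 log2). Adrm1 stood at 94.9, 105, 92.3 and 93.8 against 92.6, 117, 102 and 107 CPM (-0.12 ± 0.08 log2). All of these overlapped. Pomp stood at 99.0, 91.1, 106 and 97.8 against 95.0, 96.8, 95.2 and 91.6 CPM (0.06 ± 0.06 log2).

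The inducible subunits varied more between rats than between groups. Psmb8 stood at 28.7, 17.9, 33.4 and 25.9 CPM with aldosterone and 18.6, 19.1, 19.9 and 35.3 CPM without (0.20 ± 0.21 log2). Psmb9 stood at 27.9, 19.04, 34.9 and 30.6 against 20.5, 21.3, 25.6 and 39.3 CPM (0.09 ± 0.16 log2). Psmb10 stood at 27.4, 20.5, 30.8 and 27.1 against 18.7, 23.6, 20.1 and 36.2 CPM (0.11 ± 0.19 log2). In controls, rat 4 was the highest for all 3. Nfe2l1 stood at 375, 406, 401 and 367 against 396, 448, 373 and 348 CPM (-0.01 ± 0.08 log2), and these groups overlapped. Cell cycle genes summed to 98.5 to 178 CPM with aldosterone and 19.2 to 58.7 CPM without, and thick ascending limb genes to 1612 to 3359 and 678 to 1883 CPM. Red-cell genes summed to 2966 to 4160.0 CPM with aldosterone and 1861 to 2443 CPM without, with no overlap and 4 of 4 positive. The part of these in the members' values was not tested.

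In heart on low salt, the core and regulatory medians lay near 0, while the ATPases had a median of 0.06 and the chaperones of -0.06. No member was called by edgeR or DESeq2 among 15473 genes tested, of which 0.0129% were higher and 0.0388% lower (2 and 6 genes, and none in either direction with the replicate block). At an unadjusted p under 0.05, 1 member was higher and 1 lower, as were 879 and 762 of all genes tested. The core median was 0.02 and the regulatory median 0.03, beside -0.01 over all genes. The core sum was 1704 ± 49.1 CPM with low salt and 1675 ± 49.8 CPM with high salt, and the regulatory sum 2127 ± 57.8 and 2073 ± 117 CPM (mean ± SD, n = 4 each). The regulatory median was 0.11 within batch 1 and -0.03 within batch 2.

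The ATPase Psmc5 was the only member with groups apart in heart, where 2.69% of all genes tested were apart in that direction and 2.04% in the other. It stood at 154, 151, 135 and 136 CPM with low salt and 125, 116, 131 and 132 CPM with high salt (0.19 ± 0.07 log2, adjusted p = 0.402 by edgeR). The chaperone Psmd9 stood at 32.4, 28.6, 26.8 and 27.8 against 38.3, 33.7, 27.4 and 36.7 CPM (-0.24 ± 0.10 log2, adjusted p = 0.45 by edgeR). Its groups overlapped. Psma2, an outer ring subunit, stood at 93.7, 91.3, 94.1 and 90.4 against 104, 96.9, 92.9 and 98.9 CPM (-0.09 ± 0.05 log2, adjusted p = 0.596 by edgeR). Psmc6, another ATPase, stood at 107, 103, 111 and 109 against 94.9, 96.0, 108 and 108 CPM (0.08 ± 0.05 log2, adjusted p = 0.601 by edgeR). Neither passed.

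The catalytic subunits of the heart overlapped between diets. Psmb5 stood at 143, 135, 145 and 135 CPM with low salt and 134, 130.2, 137 and 148 CPM with high salt (0.02 ± 0.06 log2). Psmb6 stood at 119, 106, 115 and 107 against 104, 102, 107 and 112 CPM (0.07 ± 0.06 log2). Psmb7 stood at 231.7, 222, 213 and 202 against 216, 188, 204 and 214 CPM (0.08 ± 0.07 log2). The same held for the ubiquitin-handling subunits. Psmd14 stood at 55.9, 53.6, 57.4 and 53.1 against 57.9, 53.6, 60.9 and 61.9 CPM (-0.09 ± 0.06 log2). Psmd4 stood at 104, 92.6, 95.8 and 93.4 against 92.2, 89.5, 101 and 101 CPM (0.01 ± 0.06 log2). Adrm1 stood at 80.4, 81.5, 73.4 and 74.3 against 74.8, 73.7, 74.2 and 80.7 CPM (0.03 ± 0.06 log2). The maturation factor did not pass either, and Pomp stood at 144, 141, 138 and 131 against 134, 132, 133 and 141 CPM (0.03 ± 0.05 log2).

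The inducible subunits were on the lower side in heart on low salt, without passing. Psmb8 stood at 9.62, 19.6, 10.98 and 13.2 CPM with low salt and 19.1, 13.8, 14.7 and 18.7 CPM with high salt (-0.32 ± 0.22 log2, adjusted p = 0.647 by edgeR). Psmb9 stood at 10.8, 16.6, 11.04 and 10.7 against 18.0, 13.1, 10.6 and 17.0 CPM (-0.27 ± 0.19 log2). Psmb10 stood at 15.8, 17.8, 14.6 and 13.9 against 19.9, 18.5, 16.6 and 18.9 CPM (-0.25 ± 0.08 log2). All 3 overlapped between the diets. The NRF1 gene leaned the other way. Nfe2l1 stood at 608, 584, 466 and 509 against 424, 422, 456 and 436 CPM, with groups apart (0.31 ± 0.08 log2, adjusted p = 0.271 by edgeR). Red-cell genes summed to 13941 to 44349 CPM on low salt and 1798 to 26437 CPM on high salt, with 4 of 4 positive and a median log2 fold change of 1.32. Markers of other cells reached 84.0 CPM (thick ascending limb) and 59.1 CPM (atrium) in single high-salt heart libraries, against at most 6.24 and 16.9 CPM on low salt, and their part in these values was not tested.

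**Figure D4:**
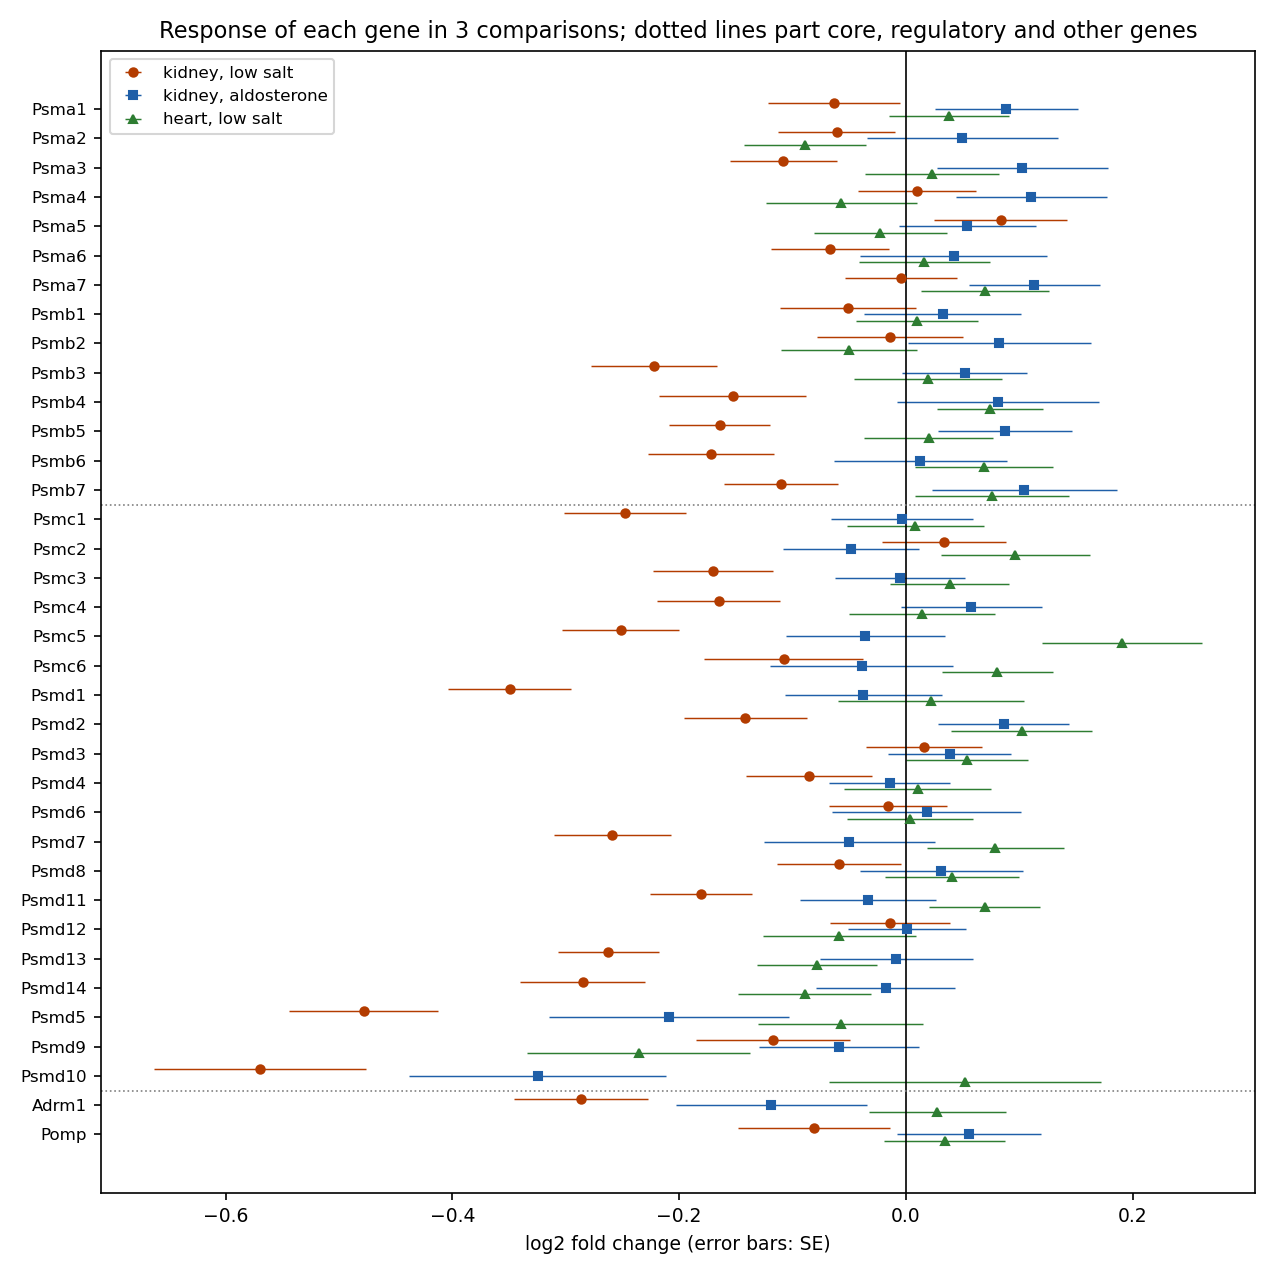
Log2 fold change of every member in the 3 treatment comparisons, with SE as error bars, and dotted lines parting core, regulatory and other genes. The medians of the regulatory genes were -0.17 in kidney on low salt, -0.02 with aldosterone and 0.03 in heart.

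Set side by side, the regulatory medians were -0.17 (kidney, low salt), -0.02 (kidney, aldosterone) and 0.03 (heart, low salt), and the core medians -0.07, 0.08 and 0.02. Tested as an interaction over 16 libraries, the low-salt response of kidney minus that of heart was called for 1 member by edgeR, Psmc5, at -0.44 ± 0.09 (adjusted p = 0.0427), where 0.453% of 19408 genes were called in that direction and 0.376% in the other. DESeq2 called 8 members lower among 432 genes lower and 305 higher, and without the batch term or the filter on low counts edgeR called none. The aldosterone response minus the low-salt response of kidney was called for no member by edgeR (0.0264% of 18938 genes were called in each direction). At an unadjusted p under 0.05, 11 members were higher and none lower, as were 1279 and 1207 of all genes. DESeq2 called Psmb3, Psmb5, Psmd1 and Psmd2 higher among 350 genes higher and 268 lower. By Xist and Y-linked genes these 2 experiments differ in apparent sex as well as in treatment, which cannot be told apart here. The largest of the members' differences was that of Psmd1, at 0.29 ± 0.09 (adjusted p = 0.151 by edgeR). These differences were in view when the members were chosen as well.

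The comparison of heart ventricle with inner medulla, both on high salt, was not used to choose the members. It is not wholly independent of that choice, since its libraries are the reference groups of the low-salt comparisons. Most members were higher in heart: by edgeR 33 of 36 were called higher and 2 lower, where 38.1% of the 18175 genes tested were called higher and 43.3% lower. In 34 members every heart lay above every kidney and in 2 below, which held for 34.7% and 39% of all genes tested. The median log2 difference was 1.00 over the core and 0.75 over the regulatory genes, beside -0.13 over all genes. The scaling sets this level. With library totals in place of TMM the median of all genes was -1.03, the core median 0.11 and the regulatory median -0.15, and 13 members were called higher and 13 lower. Relative to the median of all genes, the core stood 1.14 and the regulatory genes 0.88 higher. A scaling shifts all genes alike, so these values could hardly differ between the 2 scalings. They did depend on the filter, at 1.39 and 1.13 with no filter on low counts. With a filter of 1 CPM in 4 libraries they were 1.06 and 0.81. Within batch 1 alone 32 members were called higher and 2 lower, and within batch 2 alone 33 and 2. Tissue and count table cannot be told apart here, since each tissue was deposited as its own table.

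Of the members higher in heart, Psmd12, Psmb7 and Psma6 had the smallest p, and their levels are given on a scale shared by both tissues. Psmd12, a lid scaffold, stood at 149.98, 149.6, 185 and 193 CPM in heart and 52.3, 58.2, 54.2 and 55.3 CPM in kidney (1.61 ± 0.06 log2, adjusted p = 8.50e-08 by edgeR). Psmb7, the trypsin-like subunit, stood at 297, 257, 282 and 297 against 97.1, 92.8, 87.9 and 95.3 CPM (1.60 ± 0.07 log2, adjusted p = 2.01e-07 by edgeR). Psma6 stood at 180.0, 183, 184 and 198 against 81.3, 81.9, 77.2 and 77.5 CPM (1.23 ± 0.06 log2, adjusted p = 2.44e-07 by edgeR). All 3 kept their direction and their call with library totals, at 0.72, 0.71 and 0.34. The other 2 catalytic subunits were also higher, Psmb5 by 1.19 ± 0.06 and Psmb6 by 0.97 ± 0.06, and so was Pomp by 1.37 ± 0.08 on the log2 scale under TMM. The smallest differences among those called higher were those of Psmb3 (0.27 ± 0.07), Psmb4 (0.37 ± 0.07) and Psmd8 (0.38 ± 0.06).

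The 2 chaperones that fell on low salt in kidney were the only members lower in heart under TMM. Psmd10 stood at 19, 18.1, 17.1 and 22.1 CPM in heart and 56.6, 62.0, 67.4 and 57.5 CPM in kidney (-1.67 ± 0.10 log2, adjusted p = 1.29e-06 by edgeR). Psmd5 stood at 29.8, 29.3, 33.7 and 33.3 against 64.3, 68.9, 79.8 and 76.4 CPM (-1.20 ± 0.06 log2, adjusted p = 4.51e-07 by edgeR). Both stayed lower with library totals, at -2.57 and -2.09. The third chaperone, Psmd9, was higher under TMM, at 0.66 ± 0.10. Adrm1 did not pass, at 0.13 ± 0.06 (adjusted p = 0.0736 by edgeR). The ratio of core to regulatory sums, which no scaling touches, was 0.762 to 0.869 in high-salt hearts and 0.673 to 0.742 in high-salt kidneys, with no overlap, and it also depends on the members summed: on the log2 scale the tissues differed by 0.20 with the chaperones and 0.11 without them.

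**Figure D5:**
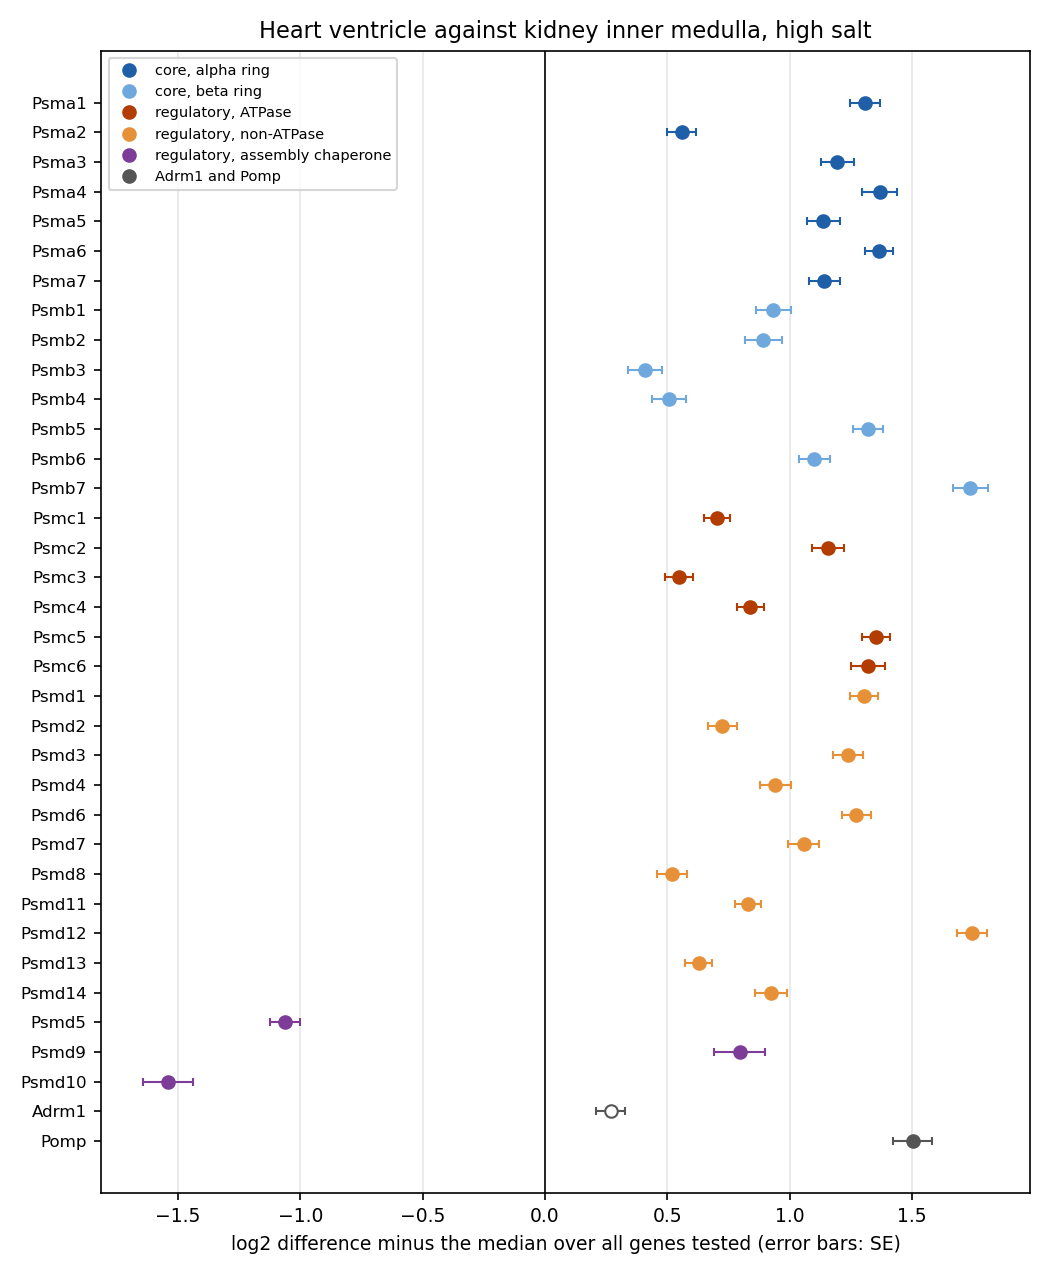
Log2 difference of each member between heart and kidney on high salt, minus the median of all genes tested, with SE as error bars. Filled points have an adjusted p under 0.05 by edgeR. Psmd5 and Psmd10 lie below 0, and the other members above it, with Psmd12 and Psmb7 farthest to the right.

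Of the 3 inducible subunits, 2 were called higher in heart under TMM, where 38.1% of all genes tested were, and library totals were not tried for them. Psmb8 was higher by 1.02 ± 0.20 and Psmb10 by 0.45 ± 0.13 (adjusted p = 0.00186 and 0.0102 by edgeR), and Psmb9 did not pass at 0.42 ± 0.22 (adjusted p = 0.1 by edgeR). Leukocyte genes summed to 64.4 to 91.4 CPM in heart and 15.6 to 23.1 CPM in kidney, and their part in this was not tested. The germ-cell core subunit Psma8 did not exceed 3.20 CPM and the thymic Psmb11 did not exceed 0.0787 CPM in any library. The 3 near-identical copies Psmb3l1, Psmb3l2 and Psmb6l1 did not exceed 0.258 CPM, and few reads were thus assigned to them.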

How the data were processed

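RNA was sequenced from 4 rats in each of 6 groups, and groups, replicates and batches were taken from the labels. Per the labels' protocols, stranded mRNA libraries (TruSeq) were read for 50 cycles from 1 end, and the tools in the submitters' processing notes are Salmon, Trimmomatic, MultiQC and bcl2fastq 2.19. For the build and annotation behind the counting, the entry is: not given in the sources used here. What the authors deposited were expected counts (Salmon estimates that need not be whole) in 3 tables, 1 per experiment and tissue. They were rounded and fitted with edgeR 4.0.16 in R 4.3.3: filterByExpr with a minimum count of 10, TMM scaling, the quasi-likelihood F test with batch as a term, and Benjamini-Hochberg adjustment across every gene tested (threshold 0.05). The SE of a log2 fold change is its size divided by the square root of F. The tissue comparison was fitted over the 8 high-salt libraries with batch, and interactions over 16 libraries. The filter kept all 36 members in every comparison.

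The members, gene lists and tests were chosen with earlier results of these data known. Values in every library are given for members called (at most 6 per direction), otherwise the 4 with the smallest p, in the tissue comparison the 3 with the smallest p per direction, and a fixed set (Psmb5, Psmb6, Psmb7, Psmd14, Psmd4, Adrm1, Pomp, Psmb8, Psmb9, Psmb10, Nfe2l1). Deviations of same-numbered rats from their group means correlated at 0.22 to 0.30 between the 2 heart groups. Between heart and kidney on high salt they correlated at 0.22 to 0.28, and every rat number matched best with its own number in both directions. Between the heart groups this held only for number 2. Batch was not removed from these deviations, so a shared batch can enter the correlations. Rats of a group within the same batch are not set apart by it. Whether same-numbered hearts and kidneys came from the same rats was not tested. The main fits used batch and did not pair rats by number. A block by replicate number was run only as an alternative, and not for the interactions. Alternatives were DESeq2 1.42.0, other scalings and filters, no batch term, the block and each library left out. The fits were tested on simulated counts first. No pair of libraries within a group agreed within sampling noise.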

Additional observations from a re-analysis of the deposited data

Results flagged for a closer look

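Of 60 groups of 4 rats examined for a value far from the other 3, 4 had one, and chance gives about 1 in 20. Psma7 stood at 145.7 CPM in control rat 3, above the 136.7 to 137.5 CPM of the other controls. Psmd1 stood at 118.6 CPM in low-salt kidney rat 1, below the 132.7 to 135.5 CPM of the others, and Adrm1 stood at 97.5 CPM in the same rat, below 109.8 to 110.6 CPM. The regulatory genes summed to 2004 CPM in control rat 1, against 2146 to 2162 CPM in the others. Without low-salt kidney rat 1, Psmd1 kept its call and Adrm1 lost it.

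The low-salt response of the base ATPase Psmc5 differed between kidney and heart by -0.44 on the log2 scale, tested as an interaction with edgeR (adjusted p = 0.0427). It was lower on low salt in kidney and higher in heart, with groups that did not overlap in either tissue. That held for 6.62% of all genes tested in kidney (lower) and 2.69% in heart (higher). In heart Psmc5 was not called (adjusted p = 0.402 by edgeR), at 0.34 within batch 1 and 0.04 within batch 2. Without the batch term or the filter on low counts the interaction was not called. These values were in view when the members were chosen.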

How the results depend on the processing

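In kidney on low salt, where 8 members were called lower and 201 and 253 of all genes higher and lower, DESeq2 called 12 members and 782 and 841 genes. Lower calls among members numbered 5 with DESeq2 size factors or library totals (the latter chosen after seeing the data), 6 with upper quartile scaling, 3 with no filter and 2 with no batch term (80 and 85 genes). Replicate numbers did not pair the kidney diets (correlations of -0.05 to 0.23), and with the replicate block no member and 30 and 22 genes were called. Batch 1 alone gave 0 members and 0 genes in each direction, and batch 2 alone 0 members, 204 genes higher and 36 genes lower. With each library left out, 0 to 3 members, 2 to 295 genes higher and 0 to 171 genes lower were called, and the regulatory median ran from -0.18 to -0.15. The regulatory median was -0.19 in batch 2, and the log2 difference of the regulatory sum changed from -0.18 to -0.16 without the chaperones. The log2 difference of the core to regulatory ratio, low against high salt, stayed positive in every alternative. Psmb10 and Nfe2l1, near 0, changed sign: Psmb10 to 0.26 in batch 1 and to 0.0679 and 0.0657 without high-salt rat 4 and low-salt rat 3 (-0.19 to 0.0679 with each library left out), and Nfe2l1 to -0.0437 in batch 2 and to -0.0410 and -0.00263 without high-salt rat 1 and low-salt rat 2 (-0.0410 to 0.0568).

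With aldosterone no member was called in any alternative. Genes called were 290 higher and 65 lower with DESeq2, 4 higher with no filter, 1 higher in batch 1 alone and 0 to 2 lower with each library left out. In heart on low salt no member was called in any alternative either. Genes called were 173 and 102 with DESeq2, 48 and 37 with no filter, 0 and 1 with no batch term, 0 and 0 with the replicate block, 1 and 0 in batch 1 alone, 0 and 1 in batch 2 alone, and 0 to 4 higher and 1 to 4 lower with each library left out. The regulatory median was 0.11 in batch 1.

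Between tissues, calls held at 32 to 33 higher and 2 lower, block included, except with library totals, which gave 13 and 13 members and 3882 and 12074 genes. Core and regulatory medians were 0.82 and 0.56 with upper quartile scaling, 0.11 and -0.15 with library totals, and the regulatory median 0.82 in batch 2 alone. Log2 differences of the sums were 0.056 (core) and -0.15 (regulatory) as plain CPM. The regulatory value was 0.63 as a mean of log2 CPM and 0.84 without chaperones, and that of the ratio 0.30 and 0.11.

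For aldosterone against low salt in kidney, DESeq2 called 4 members higher and 350 and 268 genes, upper quartile scaling 2 genes lower, no filter 27 and 25, and no batch term 0 and 0. For kidney against heart, DESeq2 called 8 members lower and 305 and 432 genes, no filter 0 members and 57 genes lower, no batch term 0 members and 6 and 8 genes, and library totals 46 genes lower. The causes were not tested.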

Other observations

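Related multi-subunit complexes were measured in the same kidneys. All 8 genes of the CCT chaperonin, which folds actin and tubulin, had negative log2 fold changes on low salt (-0.22 to -0.07). Their median of -0.14 lay between the -0.17 of the regulatory and the -0.07 of the core genes of the proteasome. In Cct2, Cct3, Cct4 and Cct7 the low-salt rats lay below the high-salt rats, as in 6.62% of all genes tested. Of the 9 genes of the COP9 signalosome, a relative of the proteasome lid that removes NEDD8 from cullins, 5 were negative with a median of -0.04. None of these 17 genes was called by edgeR. In heart on low salt, the muscle ubiquitin ligases Trim63 and Fbxo32 stood at log2 fold changes of 0.40 and 0.39, and neither was called.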
